A study of Rattus norvegicus with 6 samples.

Results

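The genes described here fold, modify, export or destroy proteins of the endoplasmic reticulum (ER). A list of 40 rat gene symbols set the membership, and every probe set annotated with exactly 1 of these symbols was taken. No measured value enters this rule, but the symbols were listed with earlier results of these data known. Of the 40 genes, 39 were represented, by 59 probe sets, among 14217 genes named in the table through probe sets with 1 symbol. Ern1, which encodes the stress sensor IRE1, is not analysed here. One of the 3 Sec61a1 probe sets had a signal of 0.7 to 0.9 on all arrays and fell below the filter on dim probe sets, so 58 probe sets and all 39 genes were tested.

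Expression was measured on Affymetrix rat arrays in aortic smooth muscle cells of passage 3 to 5. Of the 6 cultures, 3 were sheared for 24 h by laminar flow at 14 dyn/cm2 between parallel plates, and 3 were static controls. Both groups were grown in 10% fetal calf serum and then kept for 24 h in medium with 0.1% albumin; strain and genotype are not given in the labels. Each sheared culture carried the pairing number of 1 static culture. The labels do not say what a pair shared or whether cultures came from separate animals, and the p-values therefore reflect only how far these cultures differ among themselves, a spread that may be technical. Any other difference between the flow chamber and the static incubation cannot be told apart from shear stress.

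Proteins bound for the cell surface or the matrix enter the ER through the Sec61 channel, fold there with the help of chaperones and disulfide-forming enzymes, and leave in vesicles coated with COPII. Proteins that fail to fold are pulled back to the cytosol and degraded, a route called ER-associated degradation. When unfolded protein accumulates, the sensors IRE1, PERK and ATF6 start the unfolded protein response, which slows translation and induces chaperone and degradation genes. Smooth muscle cells of the artery wall secrete much collagen and elastin and therefore carry a heavy folding load.

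The median signal per array was 17.3 to 18.9 in sheared and 21.1 to 22.6 in static cells. Shear array 1 stood apart: across tested probe sets it correlated with shear arrays 2 and 3 by 0.980 and 0.981, against 0.993 between those arrays. It also correlated more with the static arrays (0.900 to 0.906) than shear arrays 2 and 3 did (0.882 to 0.887). Static array 1 was apart to a lesser degree, at 0.987 and 0.988 with static arrays 2 and 3, against 0.991 between those. Smooth muscle markers were present, with a summed signal over 11 genes of 7660 to 8266 in sheared and 10685 to 11729 in static cells. Of these 8 passed as lower in sheared cells, 0 as higher, and Des had a low signal (16.2 to 18.4) on every array. The signal was under 25 on every array for 6 of 9 endothelial and 7 of 9 leukocyte markers, among them Pecam1 (0.7 to 8.6) and Ptprc (0.6 to 3). The others were Flt1 (24.1 to 66.1), Erg (16.7 to 54.1), Esam (13.2 to 31.9), Cd68 (5.7 to 29.1) and Cd14 (81.9 to 200.9). Of 4 endothelial markers tested, 1 rose (Flt1, 0.66) and 0 fell. Of 5 leukocyte markers tested, 2 rose (Cd68, 0.695, and Coro1a, 0.44) and 1 fell (Cd14, -0.68). The summed signals of the endothelial and leukocyte markers were 138 to 143 and 149 to 192 in sheared, and 122 to 126 and 204 to 256 in static cells. The part of these markers in the results was not tested. In RNA from whole cultures, fewer cells of a type and less RNA per cell cannot be told apart.

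By the brightest probe set of each gene, 13 of the 39 genes rose in sheared cells, 10 fell and 16 did not pass an adjusted p of 0.05. Among all 11248 genes tested, 27.8% rose and 30.1% fell, so the members' shares of 33.3% and 25.6% were near those of genes at large. The members' median log2 fold change, on the log2(signal + 16) scale used throughout, was -0.08, beside -0.05 over all genes. By probe set, 30 of 58 passed (51.7%), where 52.8% of all tested probe sets did. The sheared and static arrays did not overlap for 33 (56.9%), where 60.0% of all probe sets were separated. The split moved with the scaling: 9 rose and 13 fell after quantile normalization, and 18 rose and 9 fell after median centring. These scalings moved the median of all probe sets from -0.07 to 0.02 and 0.08. In all, 11350 and 11534 probe sets passed under them, in place of 11471. The risen and fallen shares of all genes under these scalings were not counted, so whether the members moved with genes at large is not known. Without pair 1, whose shear array stood apart, 14 rose and 17 fell, whereas 8 and 9 did without pair 2 and 6 and 9 without pair 3. Over all genes, 30.9% rose and 35.1% fell without pair 1. These shares were 21.3% and 23.2% without pair 2, and 20.7% and 22.2% without pair 3. Of the 23 calls, 15 held under all 14 alternative settings: Hspa5, Dnajb9, Eif2ak3, Vcp, Serp1 and Sec23b as risen, and Creld2, Pdia4, Pdia6, Serpinh1, Fkbp10, Sec61b, Ssr1, Ssr3 and Sec24d as fallen. The largest changes among called members, at least 2-fold on this scale, were upward in Dnajb9, Eif2ak3 and Sec23b and downward in Serpinh1 and Pdia4. The shares of all genes that changed as much, or whose calls held under every setting, were not counted. Whether the members differ from genes at large in these respects is therefore not known.

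**Figure D1:**
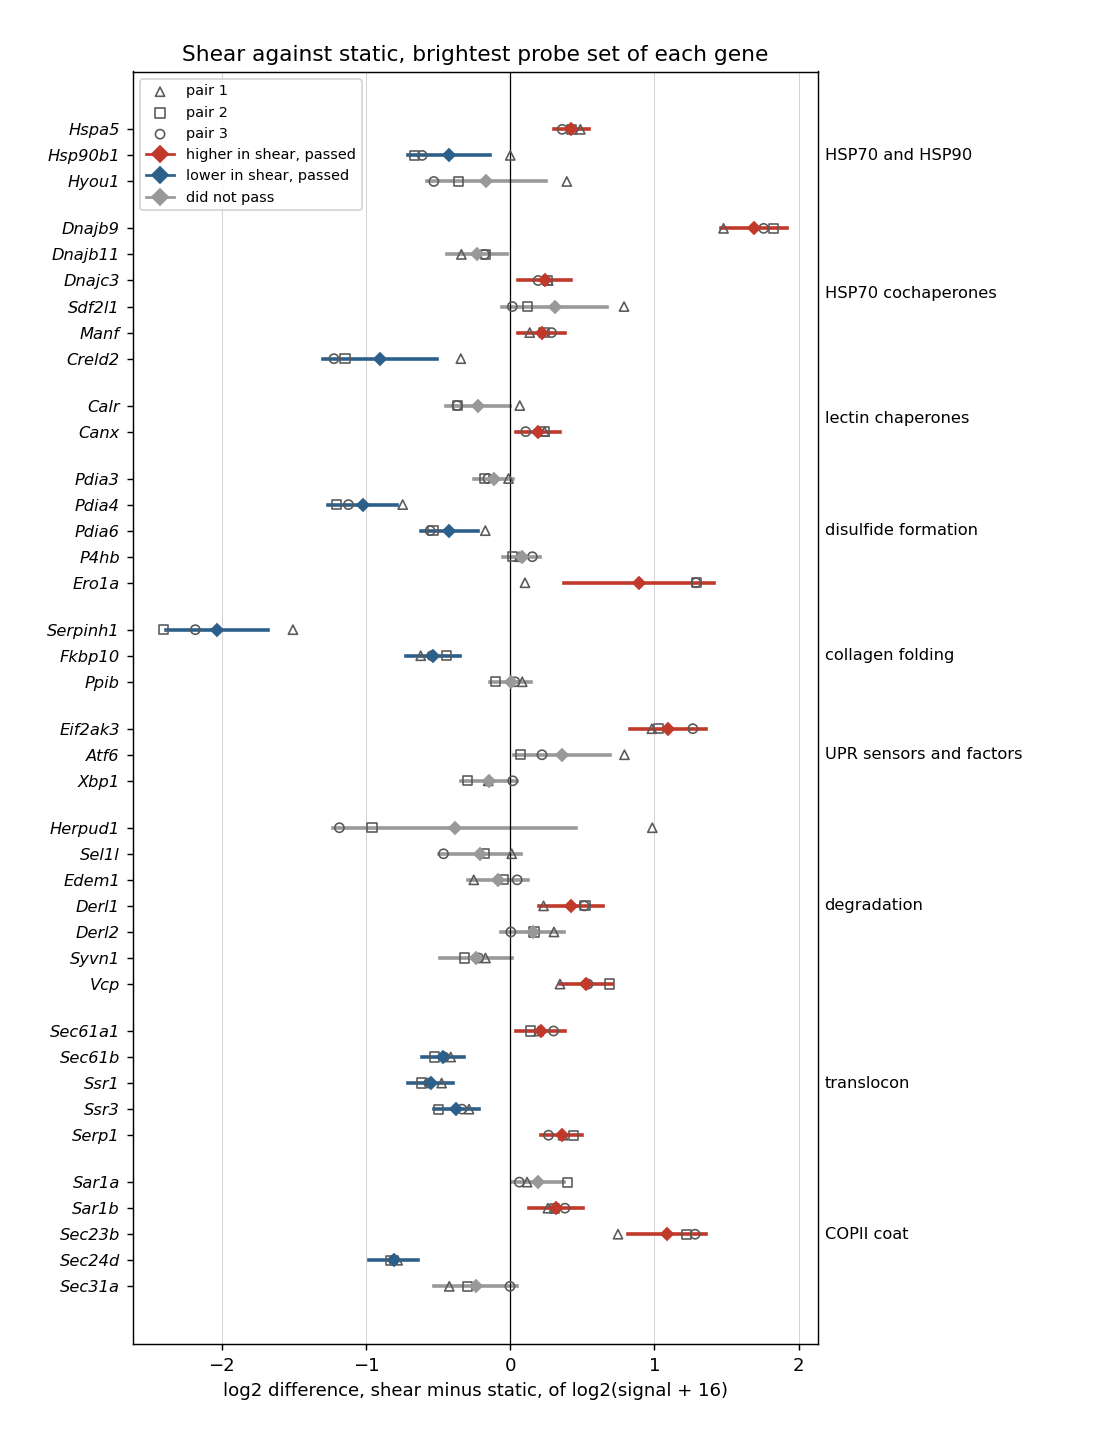
Log2 difference between sheared and static cells of log2(signal + 16) for 39 genes by role, from the brightest probe set of each; open symbols are pairs 1 to 3, diamonds and bars the fitted value with its 95% interval. Dnajb9 (1.69) lies farthest to the right and Serpinh1 (-2.03) farthest to the left, while the 3 pairs of Herpud1 spread from -1.18 to 0.99.

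Chaperone genes of the ER are known for short promoter elements that the sensors' transcription factors bind. The ER stress element ERSE has CCAAT and, after 9 bases, CCACG, the shorter ERSE-II has ATTGG and, after 1 base, CCACG, and the XBP1 element UPRE reads TGACGTGG. RefSeq promoters of build GRCr8, from 250 bases before to 50 after the first listed start of a gene, were matched for 29 of the 40 genes. The unmatched ones were Manf, Pdia3, Pdia6, Ero1a, Fkbp10, Ern1, Atf6, Derl1, Sec61a1, Sar1a and Sec24d. On either strand, ERSE was found in 7 of these (Hspa5, Hsp90b1, Dnajc3, Creld2, Calr, Canx and Xbp1), ERSE-II in 3 (Herpud1, Hyou1 and Dnajb11) and UPRE in 2 (Hyou1 and Vcp). Over all 27457 genes with a promoter these shares were 0.0765%, 0.0546% and 0.637%. The C/EBP-ATF element TGATGNAAT, present in 1.05% of promoters, was in none of the 29. ERSE was defined on promoters of such chaperone genes, so its share among them is not independent. Stretches around the elements follow for 7 genes that hold them and whose calls under shear were mixed. Capitals mark the elements, and each stretch runs 5' to 3' on the gene's strand. They lie at chr3:38452943-38453015 (plus strand) for Hspa5, chr15:102432504-102432582 (plus strand) for Dnajc3, chr10:35158039-35158107 (minus strand) for Canx, chr7:121789209-121789287 (plus strand) for Creld2, chr19:10614791-10614861 (minus strand) for Herpud1, chr8:53602661-53602834 (plus strand) for Hyou1 and chr5:62025573-62025637 (minus strand) for Vcp. In Hyou1 the UPRE and the first ERSE-II overlap and form 1 capital run, and a second ERSE-II follows. In Creld2, and for ERSE-II in Hyou1, the match is on the opposite strand, so the printed letters are its reverse complement.
Hspa5: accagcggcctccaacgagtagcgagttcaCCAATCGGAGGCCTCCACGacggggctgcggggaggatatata
Dnajc3: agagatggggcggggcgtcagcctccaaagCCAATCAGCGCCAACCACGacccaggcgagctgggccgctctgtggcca
Canx: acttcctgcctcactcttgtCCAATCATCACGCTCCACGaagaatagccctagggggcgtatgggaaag
Creld2: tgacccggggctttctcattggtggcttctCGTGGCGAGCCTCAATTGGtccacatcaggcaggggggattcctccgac
Herpud1: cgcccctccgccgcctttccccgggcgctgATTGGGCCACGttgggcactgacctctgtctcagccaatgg
Hyou1: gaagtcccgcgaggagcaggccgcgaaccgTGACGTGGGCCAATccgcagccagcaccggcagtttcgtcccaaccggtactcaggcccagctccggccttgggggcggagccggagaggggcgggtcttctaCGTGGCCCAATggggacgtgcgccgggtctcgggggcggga
Vcp: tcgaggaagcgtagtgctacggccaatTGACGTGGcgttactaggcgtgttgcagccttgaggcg

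**Figure D2:**
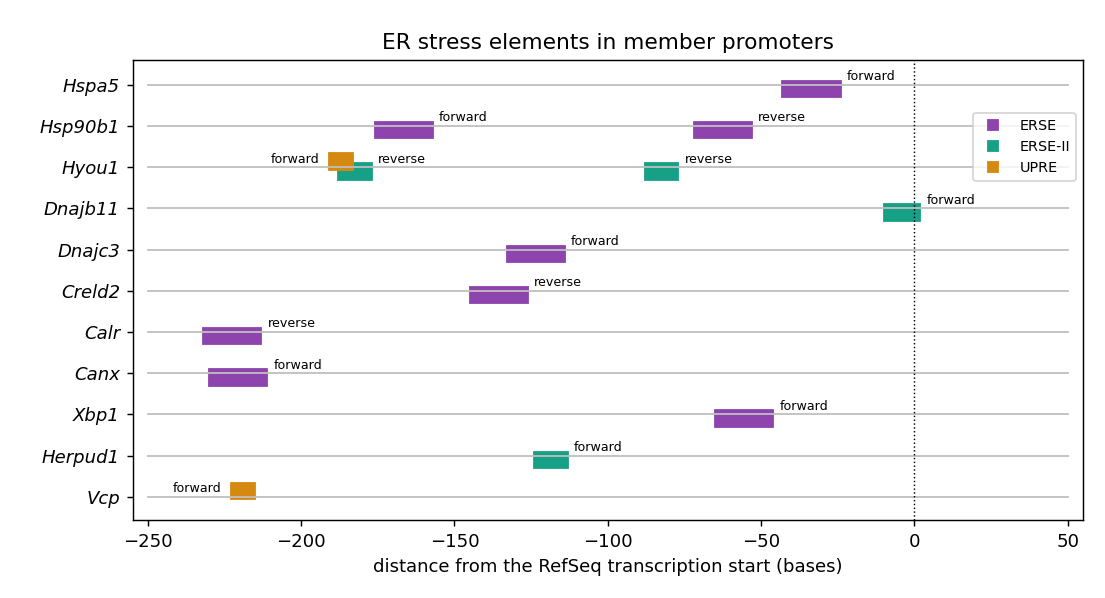
Position of ERSE, ERSE-II and UPRE matches relative to the RefSeq transcription start (bases, at 0) in the 11 member promoters that hold one, with the strand of the match relative to the gene. The ERSE of Hspa5 spans -43 to -25, Hsp90b1 and Hyou1 hold more than 1 element, and the matches of Calr, Canx and Vcp lie farthest from the start.

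Of the central chaperones of the ER, Hspa5 rose, Hsp90b1 was called lower but not under every setting, and Hyou1 did not pass. Hspa5, the HSP70 of the ER known as BiP, had signals of 4040, 3860 and 3572 in sheared cells 1 to 3, against 2878, 2872 and 2778 in static cells. Every sheared array was above every static one, and the log2 fold change was 0.42 ± 0.05 (SE, n = 3 pairs; adjusted p = 0.00031). Hsp90b1, the HSP90 of the ER known as GRP94, had 2047, 1492 and 1530 in sheared and 2045, 2375 and 2344 in static cells. It fell by 0.42 ± 0.12 (adjusted p = 0.021), but pair 1 did not differ (0.001), and the call was lost after median centring (-0.28), without the filter, without the intensity trend, without pair 2 (-0.30) and without pair 3 (-0.33). Hyou1, an HSP70-like exchange factor for BiP, had 138, 88.1 and 87.4 in sheared and 101, 117 and 133 in static cells. The groups overlapped and it did not pass (-0.16 ± 0.18, adjusted p = 0.47), nor did its second probe set (-0.21). Without pair 1 both Hyou1 probe sets passed as fallen, by 0.44 each.

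Of the 6 cochaperones and regulators of BiP, 3 rose, 1 fell and 2 did not pass, where 27.8% of all genes rose and 30.1% fell. Dnajb9, the J-domain protein ERdj4, rose more than any other member. Its signal was 901, 897 and 834 in sheared cells, against 313, 241 and 235 in static cells, a ratio of 3.33. The arrays of the groups lay far apart. Dnajb9 rose by 1.69 ± 0.10 on the log2 scale, with a 95% interval of 1.46 to 1.92 (adjusted p = 9.8e-06), and pairs 1 to 3 gave 1.48, 1.83 and 1.76. Dnajc3, the J-domain protein P58IPK that restrains PERK, had 675, 613 and 592 in sheared and 560, 510 and 516 in static cells and rose by 0.24 ± 0.08 (adjusted p = 0.036). Manf, a secreted stress factor that binds BiP, had 1261, 1170 and 1183 in sheared and 1146, 991 and 967 in static cells and rose by 0.22 ± 0.07 (adjusted p = 0.031). Both small rises kept their direction but were lost under several settings, among them quantile normalization (0.16 for Dnajc3, 0.145 for Manf), no intensity trend, and leaving out pair 2 or pair 3, and for Manf also without the filter, with a random block and without the replicate block (adjusted p = 0.061).

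Creld2, an ER-resident factor with disulfide isomerase activity, fell. Its signal was 309, 146 and 152 in sheared and 396, 343 and 376 in static cells, and its log2 fold change was -0.90 ± 0.17 (adjusted p = 0.0029). All sheared arrays were below all static ones, but the pairs differed in size, by -0.34, -1.15 and -1.22 for pairs 1 to 3. Sdf2l1, which works with ERdj3 to keep proteins soluble, had 390, 226 and 240 in sheared and 219, 207 and 238 in static cells. Only shear array 1 exceeded all static arrays clearly, and the gene did not pass (0.31 ± 0.16, adjusted p = 0.13), although it did after median centring (0.46). Dnajb11, which encodes ERdj3, had 377, 404 and 411 in sheared and 481, 458 and 467 in static cells. Its arrays did not overlap, but it did not pass (-0.23, adjusted p = 0.061). It was called lower without the replicate block, with a random block, without pair 1 and under quantile normalization.

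The lectin chaperones calreticulin and calnexin hold glycoproteins until their sugar is trimmed. Calr, the soluble one, had 1472, 1338 and 1216 in sheared and 1404, 1730 and 1573 in static cells and did not pass (-0.22 ± 0.10, adjusted p = 0.088), though it was called lower without pair 1 (-0.37) and under quantile normalization (-0.30). Canx, the membrane-bound one, was the single gene whose probe sets passed in both directions. The brightest had 1640, 1667 and 1616 in sheared and 1388, 1414 and 1498 in static cells and rose by 0.19 (adjusted p = 0.036), the second fell by 0.34 (adjusted p = 0.011), and the third did not pass (-0.095). The average of the 3 probe sets gave -0.08, which did not pass, so no direction can be given for the gene.

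Among genes for disulfide bonds, 2 isomerases fell while the oxidase that recharges them rose. Pdia4, known as ERp72, had 543, 491 and 499 in sheared and 921, 1151 and 1104 in static cells. The groups were separated by a wide gap, and Pdia4 fell by 1.02 ± 0.10 (adjusted p = 0.00012). Pdia6, known as P5, which limits signalling by IRE1 and PERK, had 1779, 1562 and 1529 in sheared and 2006, 2271 and 2253 in static cells and fell by 0.42 ± 0.09 (adjusted p = 0.0042). Ero1a, the thiol oxidase that passes electrons from the isomerases to oxygen, had 186, 428 and 460 in sheared and 172, 166 and 179 in static cells. Shear array 1 lay just above the static arrays and the other sheared arrays were more than 2-fold above them, and Ero1a rose by 0.89 ± 0.22 (adjusted p = 0.011). Pair 1 differed by 0.10 and the other pairs by 1.29 each, the second probe set (0.95, adjusted p = 0.022) gave -0.03, 1.28 and 1.59, and the change was 1.29 without pair 1. Without pair 3 the call was lost (0.70, adjusted p = 0.05). P4hb, which is both an isomerase and the beta subunit of collagen prolyl 4-hydroxylase, had 2492, 2757 and 2894 in sheared and 2383, 2722 and 2599 in static cells and did not pass (0.08, adjusted p = 0.27), though it did after median centring (0.23). Pdia3, the isomerase ERp57 that partners the lectin chaperones, had 2386, 2375 and 2362 in sheared and 2405, 2692 and 2629 in static cells and did not pass (-0.11, adjusted p = 0.14), though it was called lower without pair 1 (-0.17) and under quantile normalization (-0.25).

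The collagen chaperone gene fell most of all members. Serpinh1, which encodes HSP47 and stabilises the procollagen triple helix, had 827, 523 and 574 in sheared and 2377, 2831 and 2661 in static cells, 4.09 times as high in static cells. The highest sheared array was far below the lowest static one, and Serpinh1 fell by 2.03 ± 0.15 on the log2 scale, with a 95% interval of -2.38 to -1.68 (adjusted p = 2.9e-05). A second, dim Serpinh1 probe set with 9.6 to 15 in sheared and 21.3 to 23.4 in static cells fell by 0.45 (adjusted p = 0.022). Fkbp10, the collagen-binding prolyl isomerase FKBP65, had 536, 598 and 611 in sheared and 832, 818 and 898 in static cells and fell by 0.54 ± 0.08 (adjusted p = 0.00085). Ppib, cyclophilin B of the collagen prolyl 3-hydroxylase complex, had 2126, 2243 and 2363 in sheared and 2005, 2410 and 2309 in static cells and did not pass (0.005, 95% interval -0.14 to 0.15).

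**Figure D3:**
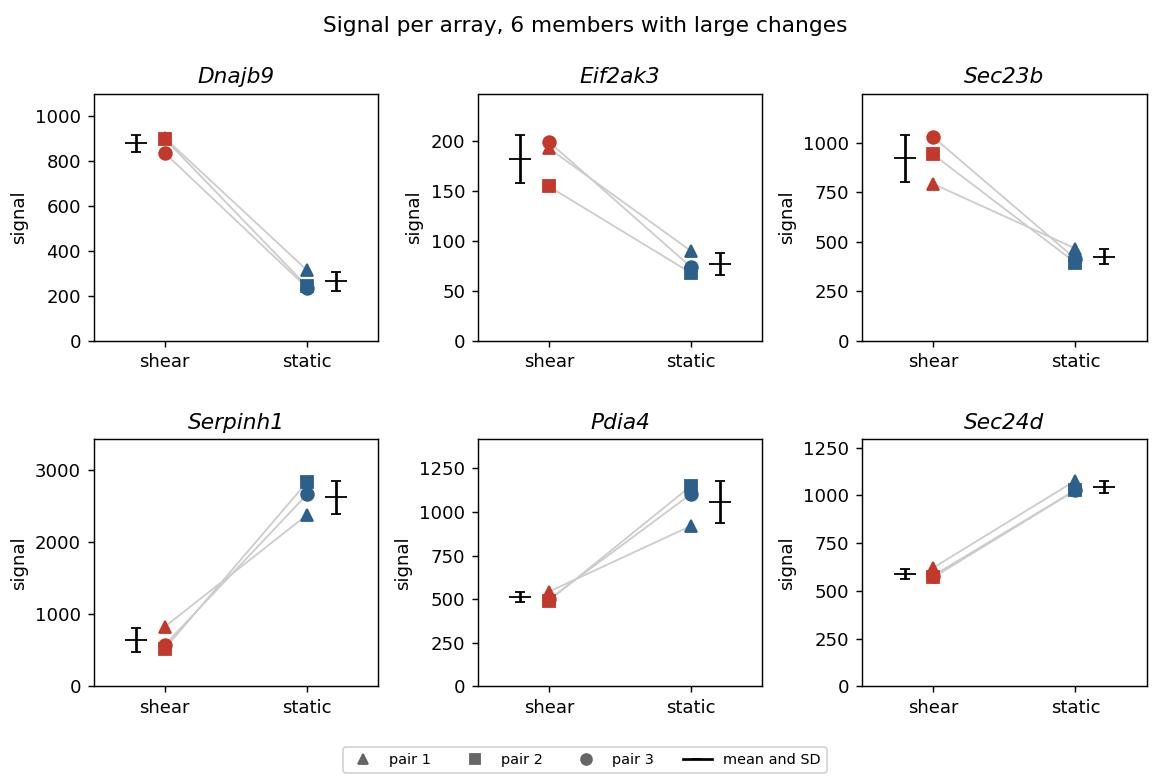
Array signal (linear, arbitrary units) of 6 members in sheared and static cells, with pairs joined by lines and the mean and SD beside the points (n = 3). Dnajb9, Eif2ak3 and Sec23b are higher in all 3 sheared arrays than in any static one, and Serpinh1, Pdia4 and Sec24d lower.

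Of the stress sensors, the PERK gene rose clearly. Eif2ak3, which encodes PERK, the kinase that slows translation through eIF2 alpha, had 192, 154 and 199 in sheared and 89.4, 67.5 and 73.3 in static cells. Every sheared array was well above the static arrays, and the log2 fold change was 1.09 ± 0.11 (adjusted p = 0.00014), with 0.98, 1.03 and 1.27 in the 3 pairs. Atf6, a membrane-bound transcription factor released by cleavage in the Golgi, had 495, 309 and 324 in sheared and 279, 293 and 275 in static cells on its brightest probe set. These groups did not overlap, yet the value (0.36 ± 0.14, adjusted p = 0.066) did not pass, and the pairs gave 0.79, 0.07 and 0.22. Its dimmer probe set, with 63.7, 74.5 and 51.8 in sheared and 37.7, 34.8 and 26.2 in static cells, rose by 0.70 (adjusted p = 0.0017), and as a mean over both the gene rose by 0.53 (adjusted p = 0.004). The brightest probe set passed after median centring (0.51) and without pair 2 (0.51), and its value was 0.15 without pair 1 (adjusted p = 0.14). Xbp1, whose mRNA is spliced by IRE1 to yield the active factor, had 945, 812 and 995 in sheared and 1052, 1001 and 983 in static cells and did not pass (-0.14 ± 0.08, adjusted p = 0.19). These probe sets give the total level and were not used to tell spliced from unspliced Xbp1.

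Of the 7 degradation genes, 2 rose and 0 fell, where 27.8% of all genes rose and 30.1% fell. Vcp, the ATPase p97 that pulls proteins out of the ER membrane, had 1784, 2026 and 1896 in sheared and 1400, 1249 and 1299 in static cells. All its sheared arrays were above its static arrays, and Vcp rose by 0.53 ± 0.08 (adjusted p = 0.0009). Derl1, a channel-like protein of the exit route, had 509, 614 and 651 in sheared and 431, 423 and 451 in static cells on its brightest probe set and rose by 0.42 ± 0.095 (adjusted p = 0.0067), while 2 other probe sets did not pass (0.14 and -0.10), nor did the mean over all 3 (0.15). Its call was also lost without pair 2 or pair 3. Derl2, its paralogue, had 546, 490 and 440 in sheared and 439, 435 and 438 in static cells and did not pass (0.16, adjusted p = 0.2), though it did after median centring (0.31). Syvn1, the ubiquitin ligase HRD1, and Sel1l, its adaptor, had log2 fold changes of -0.23 (adjusted p = 0.1) and -0.21 (adjusted p = 0.19) and did not pass, but each did as fallen without pair 1 (-0.27 and -0.32). Edem1, which marks glycoproteins for disposal, did not pass on any of 3 probe sets (-0.26 to -0.001).

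Herpud1, a membrane scaffold of the HRD1 complex and itself a known target of the stress response, differed most between pairs. It had 890, 312 and 275 in sheared and 442, 621 and 644 in static cells. Shear array 1 was the highest of all 6 and shear arrays 2 and 3 the lowest, so the pair differences were 0.99, -0.96 and -1.18. The fitted value did not pass (-0.39 ± 0.36, adjusted p = 0.4), and without pair 1 the gene fell by 1.07 (adjusted p = 3.6e-10, in a fit with 2 pairs that leans on the variance borrowed from other probe sets).

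The 5 translocon genes all passed, 2 as risen and 3 as fallen, where 27.8% of all genes rose and 30.1% fell. Serp1, which stabilises membrane proteins at the channel under stress, had 2276, 2353 and 2146 in sheared and 1761, 1733 and 1782 in static cells. It rose by 0.36 ± 0.06 (adjusted p = 0.0018), and its second probe set by 0.46 (adjusted p = 0.0013). Sec61b, the beta subunit of the channel, had 1280, 1249 and 1286 in sheared and 1709, 1807 and 1772 in static cells and fell by 0.47 ± 0.06 (adjusted p = 0.00055). Sec61a1, the pore-forming subunit, had 1071, 981 and 1070 in sheared and 931, 887 and 866 in static cells and rose by 0.21 ± 0.07 (adjusted p = 0.039), while its other tested probe set did not pass (0.10). The call was lost after quantile normalization (0.16), without the filter or the intensity trend, as a mean over probe sets and without pair 2 or pair 3.

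Ssr1 and Ssr3 encode subunits of TRAP, a complex at the channel that helps some proteins enter. Ssr1 had 1109, 1071 and 1139 in sheared and 1549, 1650 and 1693 in static cells and fell by 0.55 ± 0.07 (adjusted p = 0.00029). Ssr3 had 1502, 1261 and 1425 in sheared and 1834, 1786 and 1801 in static cells and fell by 0.37 ± 0.07 (adjusted p = 0.0025). Both genes had a further probe set that did not pass (-0.14 for Ssr1, -0.004 for Ssr3), and another Ssr3 probe set fell by 0.30.

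Among the COPII coat genes, 2 rose, 1 fell and 2 did not pass, where 27.8% of all genes rose and 30.1% fell. Sec23b, an inner coat subunit that activates the SAR1 GTPase, had 792, 940 and 1028 in sheared and 465, 393 and 413 in static cells. The sheared arrays were all above the static ones by a wide margin, and Sec23b rose by 1.09 ± 0.12 (adjusted p = 0.00016). Sec24d, an inner coat subunit that selects cargo and is known from fish to be needed for collagen export, had 621, 570 and 580 in sheared and 1077, 1026 and 1028 in static cells. It fell by 0.81 ± 0.07 (adjusted p = 7.3e-05), with values of -0.78 to -0.83 in the 3 pairs.

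Sar1b, 1 of the 2 SAR1 GTPases that start the coat, had 597, 702 and 744 in sheared and 495, 565 and 568 in static cells and rose by 0.32 ± 0.08 (adjusted p = 0.011), a call lost without pair 2 or pair 3. Sar1a, the other, gave no direction, as its probe sets pointed in opposite ways. Its brightest probe set did not pass (0.19, adjusted p = 0.067), though its sheared arrays were all above its static ones. It was called higher after median centring (0.34) and without pair 1 (0.23). The second, with 1028, 1048 and 1165 in sheared and 1357, 1374 and 1421 in static cells, fell by 0.35 (adjusted p = 0.0029). Sec31a, of the outer coat, had 82.7, 111 and 105 in sheared and 116, 140 and 105 in static cells and did not pass (-0.24, adjusted p = 0.14).

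By role, the median log2 fold change was lowest for collagen folding (-0.54) and the translocon (-0.37). It was highest for the stress sensors with Xbp1 (0.36), the BiP cochaperones (0.23) and the coat (0.19), beside -0.05 over all genes. It was -0.16 for the HSP70 and HSP90 chaperones, -0.11 for disulfide formation, -0.08 for degradation and -0.01 for the lectin chaperones. These medians rest on 2 to 7 genes each and were not tested against each other. The sensors' median is the value of Atf6 and the coat's that of Sar1a, and neither gene passed by its brightest probe set. With means over probe sets the coat's median was -0.08. The order at the top rests on pair 1: the sensors' median was 0.79, 0.07 and 0.22 in pairs 1 to 3, and without pair 1 the medians were 0.15 for the sensors, 0.15 for the cochaperones and 0.23 for the coat. Of the 15 genes with several tested probe sets, 8 gave the same call on all and 7 did not (Atf6, Canx, Derl1, Sar1a, Sec61a1, Ssr1 and Ssr3). Among the 8, Ero1a, Serp1 and Serpinh1 passed on every tested probe set, while Derl2, Edem1, Hyou1, Pdia3 and Sec31a passed on none. The 2 Derl2 probe sets pointed in opposite directions (0.16 and -0.19).

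The calls of members that hold a promoter element were mixed, as were those of genes at large. Of the 10 genes with ERSE or ERSE-II, 3 rose by their brightest probe set (Hspa5, Dnajc3 and Canx, the last with probe sets in both directions). In the same group 2 fell (Creld2, and Hsp90b1 with a call lost under several settings) and 5 did not pass. Over all genes 27.8% rose and 30.1% fell, so this split was near that of genes at large. The median difference of the 10 was 0.15 in pair 1, -0.33 in pair 2 and -0.27 in pair 3. Pair 1 was above both other pairs in 8 of the 10, in 22 of the 39 members and in 4971 of all 11248 genes. Of the 19 genes whose promoter held neither, 6 rose, 5 fell and 8 did not pass, the medians were 0.06, -0.05 and 0.02, and pair 1 was above both others in 10. Without pair 1, 3 of the 10 rose and 6 fell, the added ones being Hyou1, Dnajb11, Calr and Herpud1, while 6 of the 19 rose and 7 fell. Without pair 1 the calls grew over all genes as well, to 30.9% risen and 35.1% fallen. This grouping was made with the values known, and the difference between the genes with and without an exact ERSE or ERSE-II match was not tested.

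Pair 1 differed from the other pairs by more than 0.5 on the log2 scale, a limit set after seeing the values, in 8 of 39 members (20.5%), where 11.1% of all genes did. It was above both others for Hsp90b1, Hyou1, Sdf2l1, Creld2, Serpinh1, Atf6 and Herpud1 and below them for Ero1a. Pair 2 and pair 3 stood apart in 0 members each, where 2.34% and 2.10% of all genes did. Both cultures of pair 1 also had a lower summed signal over 8 fibroblast markers. It was 4341 in shear array 1 and 5305 in static array 1, against 7163 and 7334 in the other sheared and 7730 and 7460 in the other static arrays. Dcn and Lum were the brightest of these markers, and Col14a1 was not lower in shear array 1 (646, against 486 and 594). Among smooth muscle markers, Myh11, Cnn1, Myl9 and Actg2 were higher in both cultures of pair 1, Acta2 and Mylk were lower, and the others were mixed. Between the groups, 2 of the 7 fibroblast markers tested were higher in sheared cells (Dcn 0.39 and Dpt 0.46) and 3 lower (Pdgfra -2.25, Col14a1 -1.35 and Scara5 -1.18), beside the fall of the collagen folding genes. The part of these differences in the results was not tested.

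**Figure D4:**
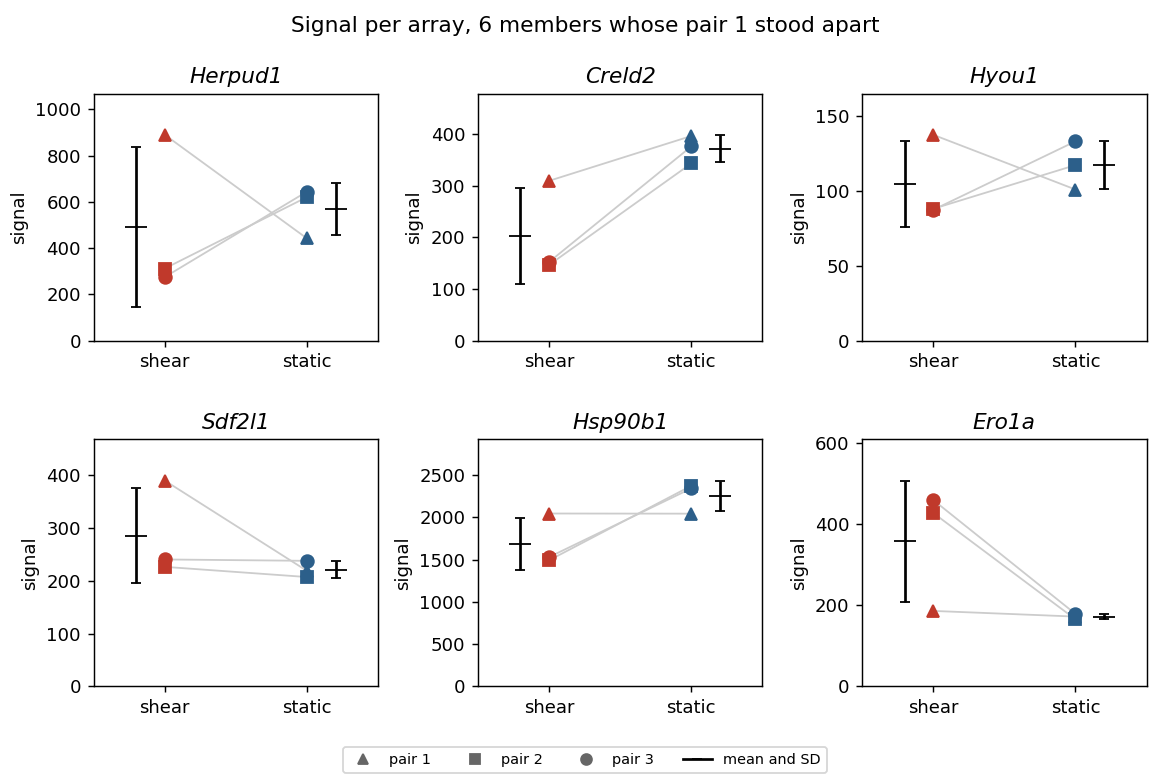
Array signal (linear, arbitrary units) of 6 members for which pair 1 (triangles) stood apart, with pairs joined by lines and mean and SD beside the points (n = 3). Shear array 1 is the highest sheared array for Herpud1, Creld2, Hyou1, Sdf2l1 and Hsp90b1 and the lowest for Ero1a.

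The wider pathway was described through 148 further genes in 7 lists, of which 137 were tested: 28 rose (20.4%), 59 fell (43.1%) and 50 did not pass, with a median of -0.14, beside 27.8% risen and 30.1% fallen over all genes. The lists were not tested against these shares. Of 11 genes that modify collagen in the ER, 9 fell (81.8%) and 0 rose, with a median of -0.69. Among the fallen were P4ha3 (-1.71), a prolyl hydroxylase subunit, and Plod2 (-1.60), a lysyl hydroxylase. P4ha3 had 466, 346 and 371 in sheared and 1236, 1355 and 1363 in static cells. Of 14 further disulfide genes, 9 fell (64.3%) and 2 rose (median -0.37), with Erp29 (-1.10), a relative of the isomerases, and the reductase Dnajc10 (-0.93) lower and the transmembrane thioredoxins Tmx4 (1.45) and Tmx1 (0.35) higher.

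Among further cochaperones and glycoprotein folding genes, 6 of 17 fell (35.3%, near the share of all genes) and 1 rose (median -0.12). Fkbp14, a prolyl isomerase that binds collagen, fell by 1.97, and Fkbp2, another prolyl isomerase, by 1.12. Dnajb14, a J-domain protein of the ER membrane, rose by 0.47. Further translocon, signal peptidase and oligosaccharyltransferase genes numbered 32, of which 17 fell (53.1%) and 2 rose (median -0.21). Stt3a, a catalytic oligosaccharyltransferase subunit, fell by 1.24 and the accessory subunit Krtcap2 by 0.93, while the channel paralogue Sec61a2 rose by 1.42 and the signal recognition particle receptor Srpra by 0.60. Of 26 further coat and cargo genes, 11 fell (42.3%) and 4 rose (median -0.11), with Bet1 (-1.38), a fusion protein of ER-derived vesicles, and the retrieval receptor Kdelr1 (-0.56) lower and the cargo receptor gene Tmed5 (1.26) and the GTPase gene Rab1a (0.23) higher.

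The lists with more risen than fallen genes were the other stress response and degradation genes. Of 19 stress response genes 9 rose (47.4%) and 4 fell (median 0.37). The median rests on pair 1, with 0.57, 0.19 and 0.005 in pairs 1 to 3, and without pair 1 9 rose and 8 fell (median 0.06). Ppp1r15a, known as GADD34, which reverses the PERK block on translation, had 966, 707 and 716 in sheared and 126, 129 and 139 in static cells and rose by 2.45 (adjusted p = 5.9e-06). Atf3, a transcription factor induced downstream of PERK, rose by 1.98, whereas Mbtps1, the Golgi protease that cleaves ATF6, fell by 1.17 and Creb3l2, a transcription factor released in the Golgi, by 1.11. Of 18 degradation genes 10 rose (55.6%) and 3 fell (median 0.35), and 10 and 4 did without pair 1. Ube2j1, a ubiquitin-conjugating enzyme of the ER membrane, rose by 1.48 and Nploc4, a cofactor of Vcp, by 1.25. Nploc4 had 780, 754 and 805 in sheared and 335, 305 and 317 in static cells. Fam8a1, a component of the HRD1 complex, fell by 1.10 and the ligase Marchf6 by 0.65, although a second Marchf6 probe set had a value of 0.45. Leaving out pair 2 or pair 3 lowered the fallen translocon genes to 10 and the fallen coat and cargo genes to 7, with 1 risen in that list, while the share fallen over all genes was 23.2% and 22.2%. In the list of further cochaperones and glycoprotein folding genes, 0 rose and 4 fell in both cases, so the call of Dnajb14 was lost. Without pair 2 and pair 3 in turn, 7 and 6 disulfide genes fell, and 9 and 8 degradation genes rose. The counts of these lists without a pair were added after seeing the data.

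**Figure D5:**
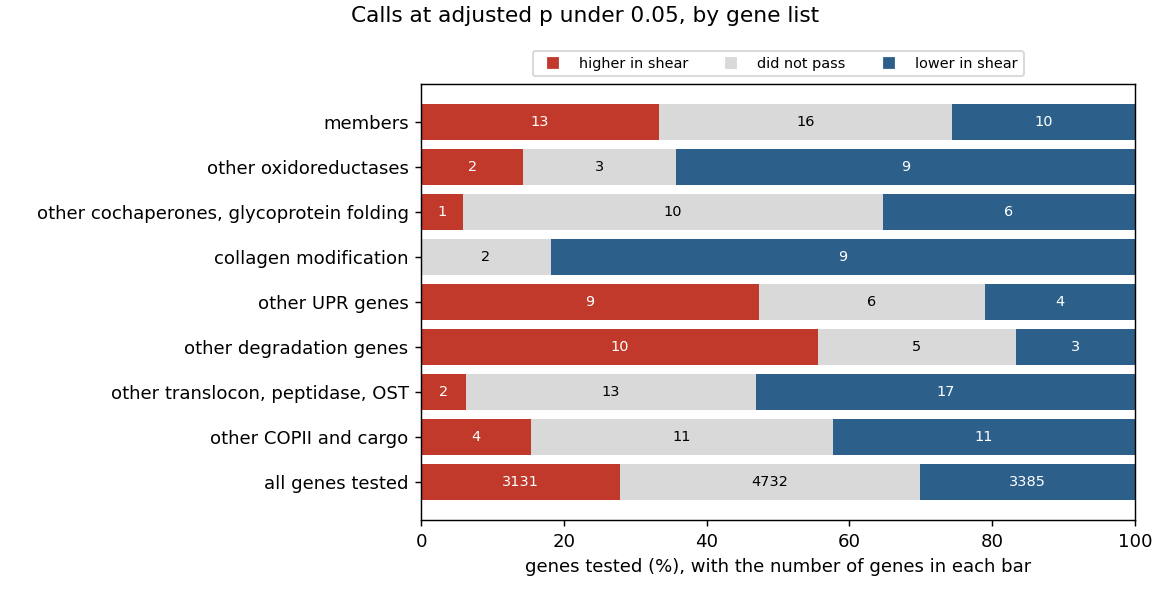
Share of genes tested (%) that were higher in sheared cells, did not pass or were lower, for the members, for 7 lists of further ER genes and for all 11248 genes, with gene numbers in the bars. Collagen modification has 9 lower and 0 higher, and the other degradation genes 10 higher and 3 lower.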

How the data were processed

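The deposited values were intensity on a linear scale, made with MAS5 per the submitters' processing notes, with 1 value per probe set and array; its version was not given in the sources used here. Every array had a trimmed mean of 100 as deposited, and no further scaling was applied. The platform annotation gave 1 gene symbol for 20826 of 31042 probe sets that were not controls. With 3 to 10 zeros per array, 16 was added before log2, which understates changes of dim genes. Dim probe sets, the lowest 30% by mean over all arrays, were not tested. Shear was compared with static over 21729 probe sets with limma 3.58.1 under R 4.3.3 (lmFit, then eBayes using an intensity trend), taking the pair as a fixed block, and Benjamini-Hochberg adjustment over all probe sets (two-sided, threshold 0.05). SE and n = 3 pairs apply to all fitted values, and signals are given in the order of arrays 1 to 3. The pairing comes from the labels; within pairs 1 to 3, residuals about the group means correlated at 0.071, 0.065 and 0.063. The brightest probe set stood for a gene. Named genes are the members and up to 2 risen and 2 fallen genes per further list by smallest adjusted p. Members and lists were chosen with earlier results of these data known. The fit was tested on simulated data. The number of arrays limits the precision. Figures were drawn with matplotlib 3.10.9.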

Additional observations from a re-analysis of the deposited data

How the results depend on the processing

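The 14 alternatives changed the block, the scaling (quantile or median), the filter (none or 50%), the pseudocount (1 or 64), the eBayes options or the probe set rule, or left out a pair (fits with 1 residual degree of freedom). Without the replicate block 12 members rose and 11 fell, in place of 13 and 10; only Manf (lost) and Dnajb11 (gained) changed. With pairs left out in turn, 6 to 14 rose, 9 to 17 fell, and 8389 to 13024 of all probe sets passed, in place of 11471. Of 546 member values over the 14 alternatives, 480 kept direction and call, 33 lost and 20 gained a call, and 13 turned direction, none of which passed: after quantile normalization P4hb (-0.073) and Ppib (-0.103); after median centring Pdia3 (0.034), Xbp1 (0.005) and Edem1 (0.066); as means over probe sets Canx (-0.080), Derl2 (-0.014) and Sar1a (-0.081); and, with a pair left out, Ppib (-0.035 to 0.059), Edem1 (-0.149 to 0.001), Hyou1 (-0.443 to 0.018) and Herpud1 (-1.071 to 0.014). Role medians turned after median centring for lectin chaperones (0.135), disulfide formation (0.034) and degradation (0.066), as means over probe sets for the coat (-0.081), and with a pair left out for the HSP70 and HSP90 chaperones (-0.443 to 0.018), lectin chaperones (-0.098 to 0.044) and degradation (-0.099 to 0.014). For the scalings and the means the shift is part of the setting; with pairs left out the cause was not tested. No detection calls were used here, so how far a dim probe set stood above background is unknown.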
